A study of Mus musculus with 3 samples.

Results

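Interferon-stimulated genes are the genes that a cell switches on after it senses an interferon, and their products carry out the antiviral and growth-limiting work of the response. The genes described here were 39 named members of this response outside its best-known core families, from the antiviral enzyme Rsad2 to the Schlafen, TRIM, PARP and PHF11 families. They were given as a list of names, drawn up with earlier results of these data known, and were looked up by symbol among the 32285 genes of the deposited matrices. Of the 39, 37 were found, and Mx1 and Mx2, which had no row under those symbols, were left out.

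Type I interferons bind the receptor chains Ifnar1 and Ifnar2 and act through the kinases Jak1 and Tyk2, which activate transcription factors of the STAT family. With Irf9 these form the complex ISGF3, which binds a short purine-rich element, the interferon-stimulated response element (ISRE), near the start of its target genes. Many of the targets degrade or modify foreign nucleic acids, tag proteins with ubiquitin or ADP-ribose, or feed back on the response, and a low level of several of them is usual in endothelial cells that have met no virus.

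Single cells came from retinas of C57BL/6JRj mice at 3 ages, namely 3 months (young), 12 months (adult) and 23 months (old), after enrichment for vessel cells with magnetic beads against CD31, an endothelial surface protein. No transgene, allele or treatment set the ages apart. Each age contributed 1 library, made with the 10x Genomics v3.1 kit from the combined retinas of a pair of mice, so that the age of the mice and the preparation of a library cannot be told apart. Each value was a number of UMIs (unique molecular identifiers, each of which marks 1 captured transcript) and was scaled to 1000000 UMIs of a cell class (CPM). There was no replicate, so no test was possible. The brackets after a value give its 95% counting interval, which covers counting error only, and neither the spread between mice nor that between preparations. The young, adult and old libraries held 16577026, 19977238 and 17021820 UMIs in 2491, 3243 and 2751 barcodes, and 1706, 1957 and 1697 cells were kept. Of the barcodes, 1 was shared by the young and adult, 3 by the adult and old and 0 by the young and old library.

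Interferon-driven genes are often recognised by the ISRE in their promoters. The letters GAAANNGAAA, the core of that element, were searched on both strands from 250 bases before to 50 bases after each RefSeq start site on GRCm38.p6. Of the 37 genes, 33 had a promoter in the table, and 11 of these 33 (33.3%) held at least 1 match, against 1079 of 27025 genes (3.99%) and 1131 of 32851 promoters (3.44%) overall. The genes with a match were Ddx60, Lgals9, Ogfr, Phf11b, Rsad2, Shisa5, Slfn5, Slfn8, Tdrd7, Trim21 and Trim30a. Rtp4, Parp9, Parp14 and Tor3a had no entry. A match describes the letters in the window and is not a measured binding site.
The 250 bases before the start are printed for 5 genes on which the results below turn, 5′ to 3′ on the strand of the gene, with the matched letters in capitals. Phf11b had the highest ratio of old to young endothelial cells, Ifi44 the next highest, the ratio of Rsad2 was lower when single rich cells were left out, Ddx60 was among the genes higher in old Müller glia, and Slfn5 was the gene with the most UMIs in endothelial cells. The windows are chr14:59341331-59341580 (minus strand) for Phf11b, chr3:151749911-151750160 (minus) for Ifi44, chr12:26456453-26456702 (minus) for Rsad2, chr8:61927837-61928086 (plus) for Ddx60 and chr11:82951852-82952101 (plus) for Slfn5.
Phf11b: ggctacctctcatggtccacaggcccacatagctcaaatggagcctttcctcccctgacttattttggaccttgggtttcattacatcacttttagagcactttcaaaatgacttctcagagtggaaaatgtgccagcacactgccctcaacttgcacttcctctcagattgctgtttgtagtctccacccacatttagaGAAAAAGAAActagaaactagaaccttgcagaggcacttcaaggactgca
Ifi44: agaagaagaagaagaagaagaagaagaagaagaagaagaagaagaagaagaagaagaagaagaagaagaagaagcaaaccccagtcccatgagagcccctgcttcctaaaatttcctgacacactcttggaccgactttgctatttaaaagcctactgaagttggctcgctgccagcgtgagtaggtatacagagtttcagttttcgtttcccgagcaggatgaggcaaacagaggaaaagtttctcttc
Rsad2: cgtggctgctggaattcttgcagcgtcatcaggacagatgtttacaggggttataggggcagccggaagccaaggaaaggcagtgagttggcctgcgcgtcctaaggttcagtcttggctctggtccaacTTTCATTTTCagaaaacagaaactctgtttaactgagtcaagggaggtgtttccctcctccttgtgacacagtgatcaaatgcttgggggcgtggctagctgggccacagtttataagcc
Ddx60: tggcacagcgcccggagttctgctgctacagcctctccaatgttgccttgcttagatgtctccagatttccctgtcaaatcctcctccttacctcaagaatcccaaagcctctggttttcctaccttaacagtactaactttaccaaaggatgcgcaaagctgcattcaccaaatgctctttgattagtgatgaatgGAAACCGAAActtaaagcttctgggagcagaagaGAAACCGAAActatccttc
Slfn5: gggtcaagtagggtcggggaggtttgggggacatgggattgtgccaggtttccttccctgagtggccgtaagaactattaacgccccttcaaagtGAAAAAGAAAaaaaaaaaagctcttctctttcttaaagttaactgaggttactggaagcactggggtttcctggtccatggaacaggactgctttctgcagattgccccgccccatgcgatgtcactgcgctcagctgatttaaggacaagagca
Counted from the start site, the match began at base -50 in Phf11b, at -120 in Rsad2, where the letters lay on the opposite strand, and at -155 in Slfn5. Ddx60 held the same 10 letters at -53 and at -19. The Ifi44 window held no match to these letters, which says only that they are not in it.

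Cell classes were rebuilt by clustering on 2000 genes from which 306 genes, among them the 37 and other interferon-stimulated and MHC genes, had been left out. The endothelial class held 444 young, 421 adult and 399 old cells and expressed all 10 of its markers. Mural cells, the pericytes and smooth muscle cells that wrap the vessels, numbered 209, 164 and 140. Müller glia, the supporting cells that span the retina, numbered 182, 215 and 206. Among neurons, rods numbered 166, 322 and 238, cones 70, 102 and 71, and bipolar cells 201, 208 and 168. B cells (10, 76 and 57), a mixed cluster of T cells and macrophages (9, 30 and 14) and amacrine cells (18, 17 and 15) were too few in the young library for a comparison between ages. Droplets with the markers of both endothelial cells and pericytes (311, 251 and 223) and a cluster of low UMI number with endothelial markers (62, 84 and 93) stayed outside the endothelial class. At least 3 different markers of another class were present in 44.6% of young, 50.6% of adult and 54.6% of old endothelial cells. A marker counted as present with any UMI, and the median depths of these classes of cells were 5642, 6044 and 7561 UMIs. The part of depth in these shares was not tested. The summed markers of Müller glia in the endothelial class were 1703, 1982 and 2376 CPM, those of pericytes 1836, 1938 and 1147 CPM, those of red blood cells 557, 204 and 1389 CPM, and those of microglia or macrophages 2.16, 2.98 and 1.65 CPM with 5, 4 and 4 of 9 markers at 0. Free RNA, estimated from rod genes, made up 2.66, 2.80 and 5.05% of endothelial UMIs. Values without the cells that carried other markers are given below for the summed level, for counts of genes and for some of the genes. What else these markers and this RNA contributed was not tested.

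Among the 6 classes compared, endothelial cells had the highest summed level of these genes at each age. The 37 genes together reached 2480 CPM (2426 to 2534) at 3 months, 2771 (2715 to 2828) at 12 months and 3526 (3465 to 3588) at 23 months. Old stood 1.42-fold (1.38 to 1.46) and adult 1.12-fold (1.08 to 1.15) above young. Mural cells had 799, 776 and 938 CPM and Müller glia 612, 622 and 775 CPM. The neurons were lower, at 404, 342 and 403 CPM in rods, 173, 224 and 172 in cones, and 186, 175 and 190 in bipolar cells. For 32 of the 37 genes endothelial cells had the highest level of the 6 classes in all 3 libraries, against 12.3% of the 14273 genes with at least 30 UMIs over these classes.

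**Figure D1:**
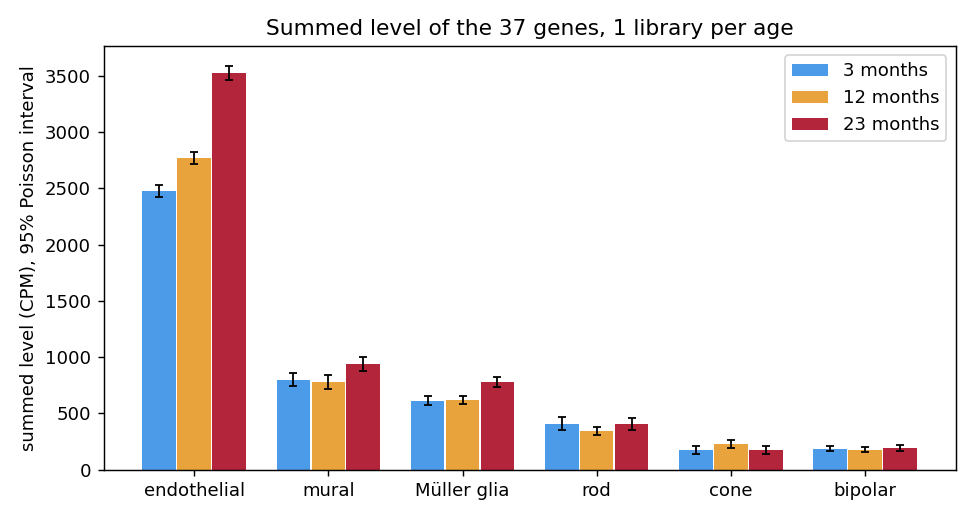
Summed level of the 37 genes (CPM) in 6 cell classes at 3, 12 and 23 months, 1 library per age, with 95% Poisson intervals that cover counting error only. Endothelial cells stand at 2480, 2771 and 3526 CPM, and every other class lies under 1000 CPM at every age.

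The other 5 genes were Tdrd7, Parp9, Daxx, Ogfr and Epsti1. Tdrd7, a Tudor domain protein of RNA granules, was highest in rods, at 284, 262 and 252 CPM against 32.4, 31.9 and 41.1 in endothelial cells. Parp9, Daxx and Ogfr had no fixed class of highest level across the libraries, and Epsti1 had 0 UMIs in each of the 6 classes of the young library. Ogfr, the receptor of opioid growth factor, lay at 34.8, 31.3 and 38.2 CPM in Müller glia and at 27.4, 29.5 and 43.0 CPM in endothelial cells. At the other extreme, Slfn2, Sp110 and Phf11b had 0 UMIs in the Müller glia of all 3 libraries, although each was detected in endothelial cells at every age. For a count of 0 a floor of 3 counts was used, a one-sided limit that lies below the upper end of the exact intervals, and it allows up to 3 UMIs per library here.

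**Figure D2:**
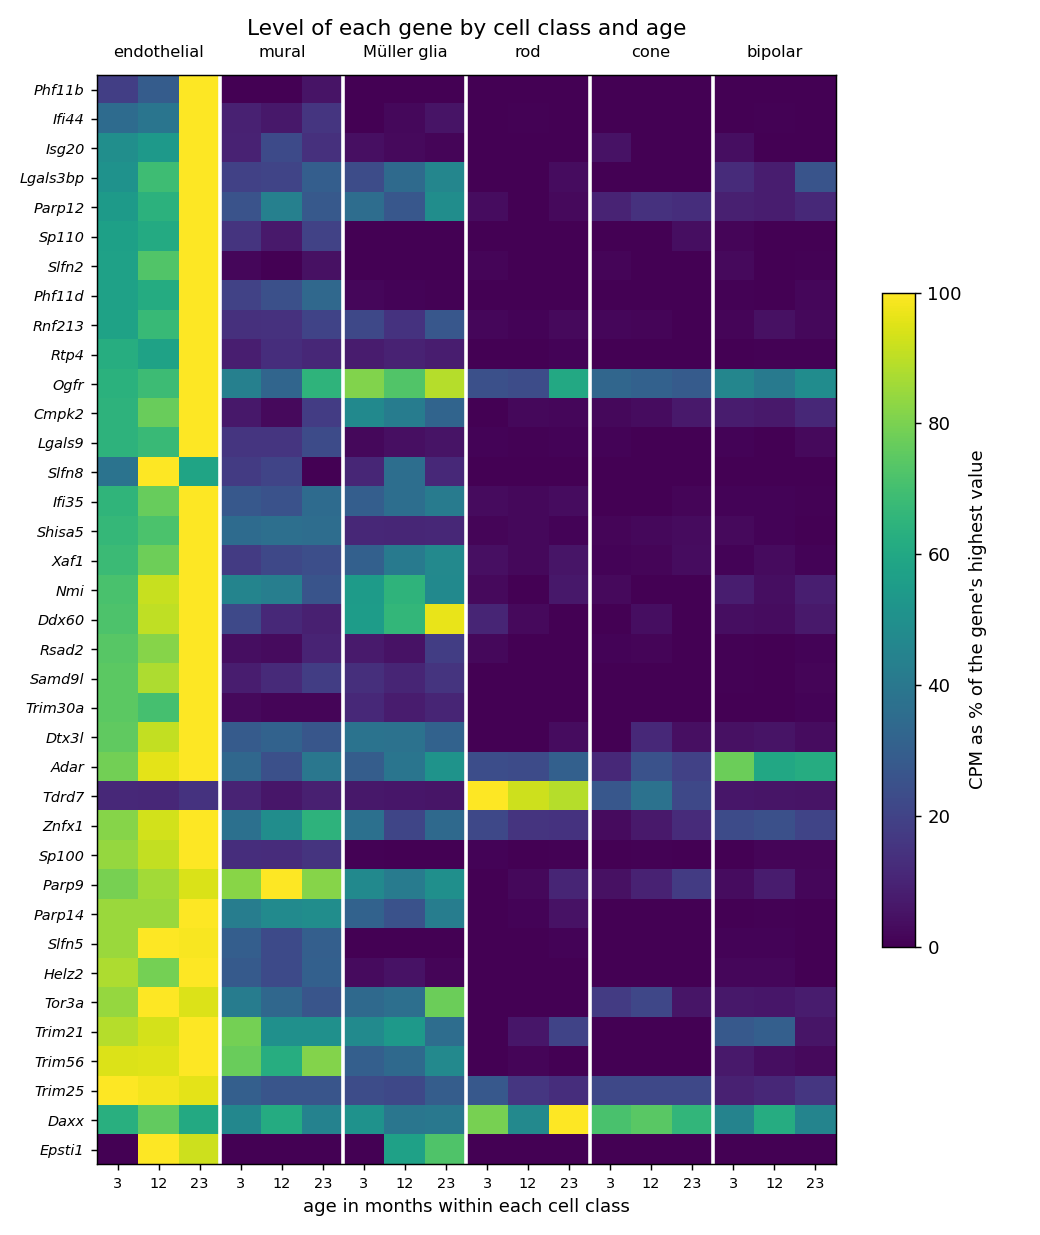
Level of each gene (rows) in each cell class at 3, 12 and 23 months (columns), as a percentage of the highest CPM of that gene. Most rows are brightest in old endothelial cells, Tdrd7 is brightest in rods, and Epsti1 rests on 0, 3 and 3 endothelial UMIs.

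In endothelial cells 36 genes had at least 30 UMIs over the 3 libraries and could be sorted by age, with a ratio of 1.5 to the young library as the limit. Only at 23 months did 13 genes (36.1%) pass the limit, against 4.24% of the 10632 genes compared. Phf11b and Slfn8, 2 genes (5.56%), had passed it by 12 months and still did at 23 months, against 2.89% of genes. None passed it only at 12 months (2.45% of genes) and 21 stayed below it at both ages (58.3%, against 90.4% of genes). The old to young ratio was above 1 for 34 of 36 genes (53.0% of all genes were), and its counting interval lay above 1 for 27 (11.3% of all genes) and below 1 for 0 (7.04%). For adult against young the interval lay above 1 for 8 genes (22.2%, against 8.57% of all genes). The median log2 ratio was 0.48 for old against young (0.02 over all genes), 0.17 for adult against young (0.05) and 0.35 for old against adult (-0.01). The limit cut through closely spaced values: Ifi35 lay just inside it at a ratio of 1.53, and Shisa5 just outside at 1.499.

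**Figure D3:**
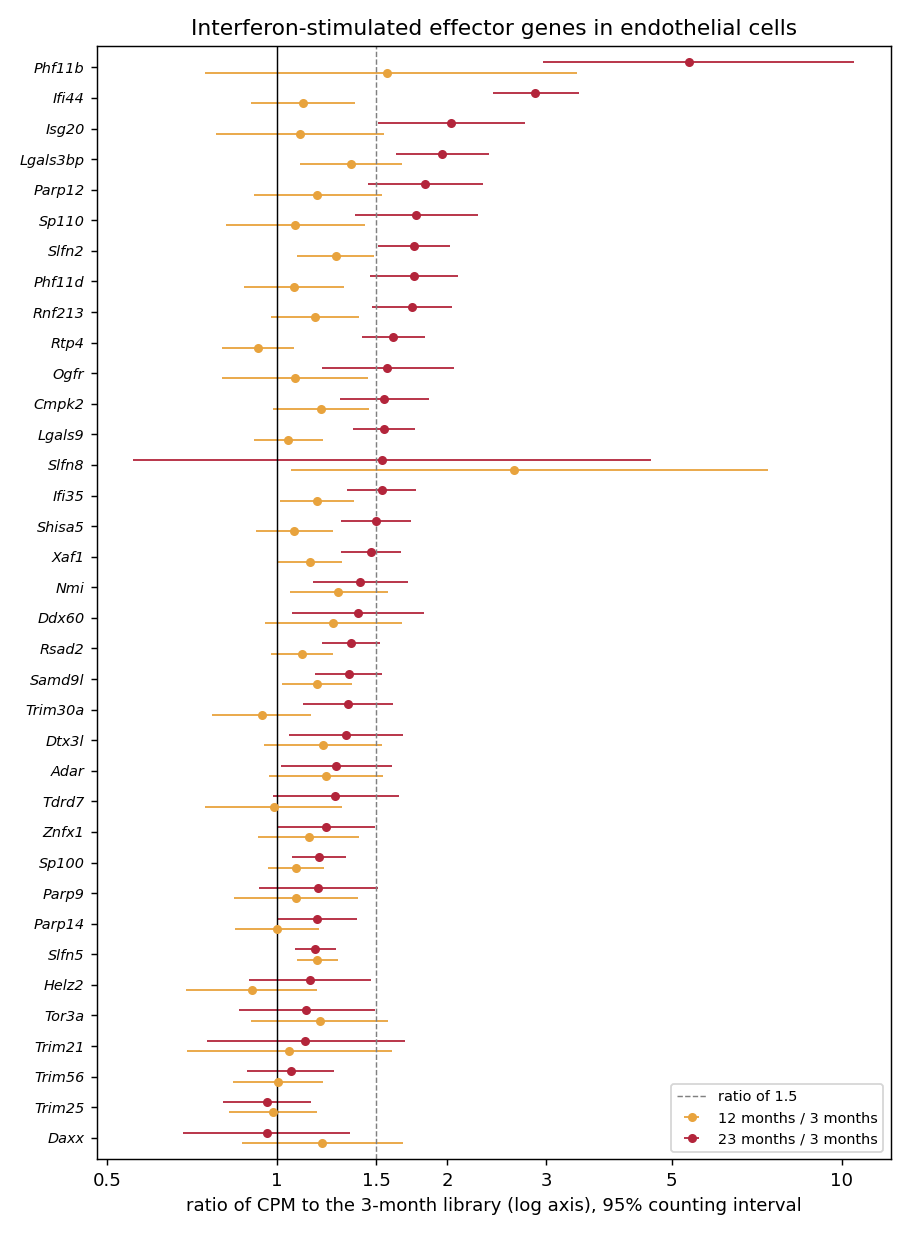
Ratios of CPM to the 3-month library in endothelial cells for the 36 genes compared (log axis), at 12 months (orange) and 23 months (red), with 95% counting intervals and a dashed line at 1.5. Red points lie right of orange ones in most rows, and Phf11b and Ifi44 stand farthest right at 5.37 and 2.87.

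The PHF11 proteins are nuclear proteins with a PHD finger, encoded by neighbouring genes on chromosome 14. Phf11b (chr14:59320964-59341351) was counted 13 times in young, 21 times in adult and 78 times in old endothelial cells, at 4.01 (2.13 to 6.85), 6.26 (3.88 to 9.58) and 21.5 (17.0 to 26.8) CPM. Its old to young ratio of 5.37 (2.96 to 10.5) was the largest of the 36, while its adult to young ratio of 1.56 (0.75 to 3.40) reached down past 1, so its place among the early genes was not resolved at this depth. The old to young ratio was 13.2 in cells thinned to 2000 UMIs and 3.47 without the cells that carried markers of another class. Phf11d, 6055 bases away, had 57.3, 61.4 and 100.1 CPM, an old to young ratio of 1.75 (1.46 to 2.09), and was level at 12 months with a ratio of 1.07 (0.88 to 1.31). Of the 50-base stretches in the last 500 bases of their transcripts, 42.6% in Phf11b and 25.3% in Phf11d also occur in other genes, which for Phf11b were PHF11 genes and for Phf11d also included Rbm8a2, so the split of reads among these copies is uncertain.

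Nuclear bodies hold Sp100, Sp110 and Daxx, which restrain viral genomes and bind chromatin, and their ratios spanned a wide range. Sp110 had 29.9 (24.2 to 36.5), 32.2 (26.4 to 38.9) and 52.7 (45.4 to 60.7) CPM and an old to young ratio of 1.76 (1.37 to 2.27). Sp100 lay lower at 1.19 (1.06 to 1.33). Daxx, with 21.6, 26.0 and 20.7 CPM, had the lowest ratio of all at 0.958 (0.683 to 1.35), an interval on both sides of 1. That of Daxx was 1.95 in thinned cells and 0.595 without cells that carried markers of another class. For Sp110, 45.4% of the same 3′ stretches are shared with other genes of its cluster on chromosome 1, and its value is uncertain for that reason.

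Ifi44, a cytosolic protein that limits viral growth, gave the best-counted large difference. It was counted 169, 194 and 542 times, at 52.1 (44.5 to 60.5), 57.9 (50.01 to 66.6) and 149 (137 to 163) CPM by age. The young and adult libraries overlapped within counting error, and the old library stood above both, with ratios of 2.87 (2.41 to 3.43) to young and 2.58 (2.19 to 3.06) to adult. The share of cells that carried it was higher as well. After every cell was thinned to 2000 UMIs, 7.60% of young (5.29 to 10.5), 10.8% of adult (7.89 to 14.2) and 22.03% of old cells (18.03 to 26.4) had at least 1 Ifi44 UMI, and without thinning 20.5, 26.4 and 51.9% did. In rods, which served as background at median depths of 2287, 2426 and 2152 UMIs against 5642, 6044 and 7561 in endothelial cells, the thinned share was 0, 0.461 and 0%. By the floor of 3 counts, 0 allows up to 2.86% of the 105 young and 2.10% of the 143 old rods.

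Isg20, an exonuclease that degrades single-stranded RNA, also passed the limit only at 23 months, at 20.6 (16 to 26.2), 22.7 (17.9 to 28.4) and 41.9 (35.5 to 49.1) CPM. Its old to young ratio of 2.03 (1.51 to 2.75) was 1.249 when each cell was thinned to 2000 UMIs. Rtp4, a transmembrane chaperone that binds TBK1 and limits the response, had its whole difference after 12 months. It stood at 116 (104 to 128), 107 (96.3 to 119) and 186 (172 to 200) CPM, so that the adult library was no higher than the young at a ratio of 0.927 (0.7996 to 1.07), whereas old stood 1.61-fold (1.41 to 1.83) above young. Without the cells that carried markers of another class the old to young ratio of Rtp4 was 1.24.

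Rsad2 (viperin), which makes a chain-terminating nucleotide, and Cmpk2, the mitochondrial kinase that supplies its substrate, sit head to head 12751 bases apart on chromosome 12. Rsad2 had 144 (131 to 158), 160 (146 to 174) and 195 (181 to 210) CPM and Cmpk2 58.5 (50.5 to 67.5), 70.1 (61.4 to 79.7) and 90.7 (81.2 to 101) CPM. These gave old to young ratios of 1.35 (1.20 to 1.52) and 1.55 (1.29 to 1.86). In the old library 1 endothelial cell of 6455 UMIs held 248 UMIs of the 37 genes (3.84% of its UMIs), with 107 of the 707 Rsad2 UMIs, 51 of the 329 Cmpk2 UMIs and 32 of the 37 genes detected. The richest young and adult endothelial cells had 0.939% and 1.58% of their UMIs from these genes. Leaving out the richest cell of each library, an alternative chosen after seeing the data, brought the old to young ratio to 1.16 (1.02 to 1.31) for Rsad2 and to 1.33 (1.10 to 1.61) for Cmpk2, which then fell below the limit. The ratio of Ifi44 was 2.88 without those cells.

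ADP-ribosylation is the task of Parp9, Parp12 and Parp14, and Dtx3l is the ubiquitin ligase that pairs with Parp9. Parp12 alone of these passed the limit, with 33.9 (27.9 to 40.9), 40.0 (33.5 to 47.3) and 62.0 (54.2 to 70.7) CPM and an old to young ratio of 1.83 (1.45 to 2.32). Old to young, Dtx3l stood at 1.32 (1.05 to 1.67), Parp9 at 1.18 (0.928 to 1.51) and Parp14 at 1.18 (1.00 to 1.38). The annotated starts of Dtx3l and Parp9 overlap by 682 bases on opposite strands, and reads from there can be told apart only if counting used the strand.

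Ubiquitin ligases of the TRIM family act on viral sensors and capsids, and RNF213 is a giant ligase that coats intracellular pathogens. Rnf213 passed the limit late, with 70.3 (61.4 to 80.0), 82.0 (72.6 to 92.3) and 122 (111 to 134) CPM, a ratio of 1.73 (1.47 to 2.04). The TRIM genes did not. Trim25, which modifies the RNA sensor RIG-I, had 75.2, 74.0 and 72.2 CPM and an old to young ratio of 0.961 (0.804 to 1.15). Trim56 was at 72.7, 73.1 and 76.9 CPM (1.06, 0.886 to 1.26), and Trim21, the intracellular antibody receptor, at 14.5, 15.2 and 16.3 CPM (1.12, 0.753 to 1.68). Trim30a had the highest of the 4 TRIM ratios at 1.34 (1.11 to 1.60), with 19.9% of its 3′ stretches shared with Trim30d.

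Schlafen proteins limit translation and cell division. Slfn2 was higher at each later age, with 86.9 (77.1 to 97.7), 110.4 (99.4 to 122) and 152 (139 to 165) CPM and ratios of 1.27 (1.08 to 1.49) for adult and 1.75 (1.51 to 2.02) for old against young. Slfn5, at 310.0 (291 to 330), 366 (346 to 387) and 362 (343 to 383) CPM, had its whole difference by 12 months, when the ratio was 1.18 (1.08 to 1.28), and adult and old overlapped. Slfn8 counted as early only through 7, 19 and 12 UMIs. Its adult to young ratio of 2.63 (1.06 to 7.40) and its old to young ratio of 1.53 (0.557 to 4.60) carry little weight. Without cells that carried markers of another class they were 1.22 and 1.11, both under the limit, and the old to young ratio was 2.75 in thinned cells. Of its 3′ stretches, 25.5% are shared with Slfn9 and Slfn10-ps.

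Secreted galectin-pathway proteins were both late. Lgals3bp, a galectin-binding glycoprotein, had 49.9 (42.5 to 58.2), 67.4 (58.9 to 76.8) and 97.9 (87.9 to 109) CPM, an adult to young ratio of 1.35 (1.10 to 1.66) and an old to young ratio of 1.96 (1.62 to 2.38), each library above the one before it. Lgals9, a sugar-binding ligand of immune checkpoint receptors, stood at 119, 125 and 184 CPM, an old to young ratio of 1.55 (1.36 to 1.76).

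The helicases Ddx60 and Helz2, the RNA-binding protein Znfx1 and the editing enzyme Adar had old to young ratios below the limit, at 1.39 (1.06 to 1.82), 1.14 (0.893 to 1.46), 1.22 (1.00 to 1.49) and 1.27 (1.02 to 1.60). The partner proteins Ifi35 and Nmi, which bind each other, were at 1.53 (1.33 to 1.77) and 1.40 (1.16 to 1.71). For the apoptosis-linked Xaf1 and Shisa5 and the growth regulator Samd9l the ratios were 1.47 (1.30 to 1.66), 1.499 (1.30 to 1.73) and 1.34 (1.17 to 1.54). Of the remaining genes, Ogfr had 27.4 (22.02 to 33.7), 29.5 (24.0 to 36.0) and 43.0 (36.5 to 50.3) CPM, a ratio of 1.57 (1.20 to 2.06), Tor3a, an endoplasmic reticulum ATPase, 29.6, 35.2 and 33.4 CPM with a ratio of 1.13 (0.855 to 1.49), and Tdrd7 a ratio of 1.27 (0.982 to 1.65). Epsti1, with 0, 3 and 3 endothelial UMIs, was not compared.

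Across 11 other ways of choosing cells or scaling counts, 5 genes kept an old to young ratio of at least 1.5 each time, namely Ifi44, Lgals3bp, Parp12, Phf11b and Slfn2 (as did 159 of all 10632 genes compared), and 30 of the 36 stayed above 1 each time (24.2% of all genes). The larger of the endothelial clusters had summed levels of 2471, 2754 and 3615 CPM and a ratio of 1.46 (1.42 to 1.51). The other, led by Gkn3, Sema3g and Vegfc, with 44, 58 and 79 cells, had 2537, 2868 and 3191 CPM and a ratio of 1.26 (1.17 to 1.35). Without the endothelial cells that carried markers of another class the summed ratio was 1.29 and 8 of the 35 genes then compared passed only at 23 months (5.54% of 8873 genes).

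The counts were also taken cell by cell. Thinned to 2000 UMIs, the median endothelial cell had 5, 5 and 6 UMIs of the 37 genes by age, with a 90th percentile of 9, 10 and 12.6 UMIs and a mean of 4.88, 5.53 and 6.92. Cells with 6 or more such UMIs made up 37.3, 42.5 and 54.4%, and cells with none were under 2% at each age. Thinning left out 10 young, 21 adult and 4 old cells below 2000 UMIs. In mural cells 2.09, 2.08 and 4.84% and in Müller glia 2.33, 2.01 and 3.01% reached 6 UMIs, and in rods and bipolar cells 0% did.

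**Figure D4:**
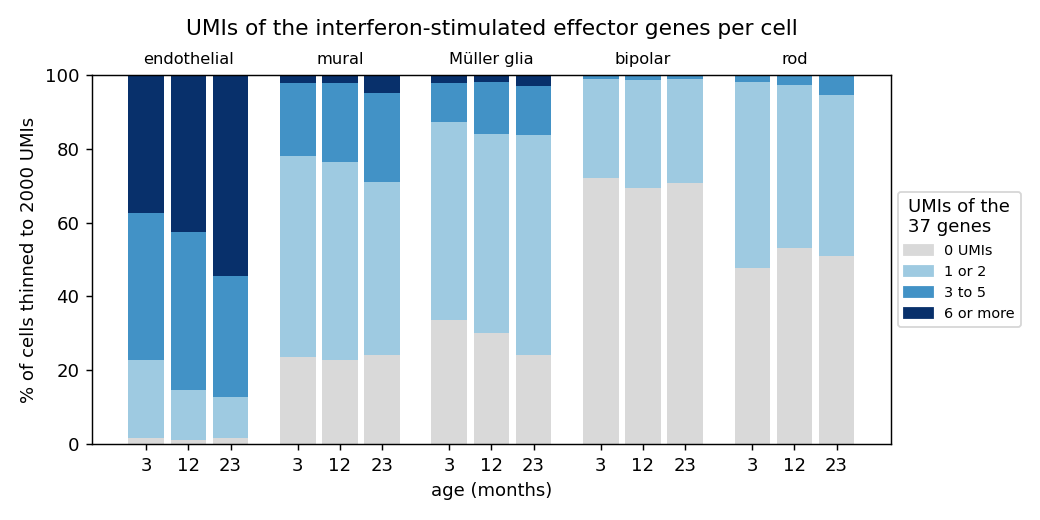
Share of cells (% of cells thinned to 2000 UMIs) with 0, 1 or 2, 3 to 5, or 6 or more UMIs of the 37 genes, by class and age in months. The darkest part, 6 or more UMIs, makes up 37.3, 42.5 and 54.4% in endothelial cells and stays under 5% in every other class shown.

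In mural cells, with 1012416, 854494 and 860213 UMIs in the class, 26 of the genes could be compared. Their summed level had an old to young ratio of 1.17 (1.06 to 1.30) and an adult to young ratio of 0.971 (0.875 to 1.08). Only at 23 months did 5 genes pass the limit (19.2%, against 7.17% of 8271 genes), 2 passed only at 12 months (Parp12 and Rtp4, 7.69% against 4.30%), 0 passed by 12 months (4.86% of genes), and 19 passed at neither age (73.1% against 83.7%). Parp12 had 16, 23 and 15 UMIs and Rtp4 16, 21 and 18, and neither adult to young interval lay above 1. The old to young interval lay above 1 for 2 genes (7.69%, against 9.01% of all genes), a share below the background. The median log2 ratio was 0.19 against 0.06 over all genes. The 5 late genes were Samd9l, Znfx1, Phf11d, Ifi44 and Lgals3bp. Samd9l had 12, 15 and 23 UMIs (11.9, 17.6 and 26.7 CPM), a ratio of 2.26 (1.08 to 4.97), and Znfx1 25, 28 and 37 UMIs (24.7, 32.8 and 43.0 CPM), a ratio of 1.74 (1.02 to 3.02). Phf11d, at 19.8, 24.6 and 33.7 CPM (1.71, 0.933 to 3.18), and Ifi44, at 13.8, 9.36 and 23.3 CPM (1.68, 0.808 to 3.60), had intervals that included 1. So did Lgals3bp, on 19, 17 and 25 UMIs. Without the richest cell of each library Lgals9 at 1.63 (0.956 to 2.81) and Rnf213 at 1.54 (0.767 to 3.16) also passed only at 23 months. Lowest were Nmi, at 34.6, 32.8 and 19.8 CPM (0.572, 0.300 to 1.05), and Tor3a, at 14.8, 11.7 and 9.30 CPM (0.628, 0.230 to 1.58). The mural cluster led by Tagln, Acta2 and Myh11, genes of smooth muscle (38, 37 and 37 cells) had 471, 688.5 and 682 CPM in sum and an old to young ratio of 1.45 (1.17 to 1.79). The pericyte cluster (171, 127 and 103 cells) had 942, 825 and 1121 CPM and a ratio of 1.19 (1.06 to 1.33). The ratio of the whole class lay below both, and the pericyte cluster made up less of it in the old library. Endothelial markers in mural cells stood at 3.29, 2.93 and 3.70% of their endothelial level. In the same cells the summed markers of smooth muscle were 8125, 11871 and 13439 CPM, those of pericytes 20960, 19527 and 16632 CPM, those of Müller glia 1041, 1525 and 1951 CPM and those of red blood cells 17.8, 31.6 and 237 CPM. Their part in the mural values was not tested.

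In Müller glia, of 26 genes compared, 7 passed only at 23 months (26.9%, against 4.74% of 10499 genes), Lgals9 passed by 12 months (3.85% against 3.82%), 0 only at 12 months (3.48% of genes) and 18 at neither age (69.2% against 88.0%). The interval lay above 1 for 8 (30.8% against 6.59% of all genes) and below 1 for 1 gene (3.85% against 4.49%), with a median log2 ratio of 0.24 (0.03 over all genes). The late genes were Rsad2, Tor3a, Lgals3bp, Ddx60, Adar, Trim56 and Xaf1, of which Rsad2, Tor3a, Ddx60, Adar, Trim56 and Xaf1 had not passed in endothelial cells. That difference between classes was not tested.
Rsad2 had 13.8 (8.75 to 20.7), 9.75 (5.87 to 15.2) and 35.7 (26.9 to 46.4) CPM in Müller glia and the highest ratio, 2.58 (1.56 to 4.40). It rested on 1 cell, which held 32 of the 55 old Rsad2 UMIs, 11 of the 12 old Ifi44 UMIs and 20 of the 37 genes. Without the richest cell of each library Rsad2 stood at 1.39 (0.717 to 2.73), below the limit, Trim56 at 1.42 (0.918 to 2.21) was also below it, and Lgals9 passed only at 23 months, with an adult to young ratio of 1.47. The share of cells with an Rsad2 UMI was 9.34, 6.98 and 9.22% at median depths of 9171, 9449 and 6912 UMIs.
Tor3a was spread over 18, 21 and 35 cells, at 12.0 (7.33 to 18.5), 12.8 (8.30 to 18.9) and 27.2 (19.6 to 36.8) CPM, and its ratio of 2.27 (1.30 to 4.08) was 2.29 without those cells. Lgals3bp had 22.8 (16.1 to 31.3), 33.9 (26.2 to 43.1) and 44.7 (34.8 to 56.6) CPM, a ratio of 1.96 (1.30 to 3.00), close to its endothelial ratio of 1.96. Lgals9, on 7, 14 and 15 UMIs, had 4.20, 7.18 and 9.72 CPM and a ratio of 2.31 (0.888 to 6.71). Cmpk2 went the other way, at 43.2 (33.8 to 54.4), 38.0 (29.8 to 47.7) and 29.2 (21.3 to 39.0) CPM, a ratio of 0.675 (0.455 to 0.993). Trim21 had 13, 17 and 9 UMIs, at 7.80, 8.72 and 5.83 CPM, a ratio of 0.748 (0.282 to 1.89).
The share of Müller UMIs that rod genes attributed to free RNA was 21.4, 37.5 and 32.3%. After its subtraction the summed old to young ratio was 1.02 in place of 1.27 (1.16 to 1.38). Endothelial markers stood at 8.36, 7.94 and 8.37% of their endothelial level, astrocyte markers at 433, 129 and 141 CPM and rod markers at 500, 1468 and 882 CPM. The part of astrocyte markers was not tested. Slfn5, the gene with the most endothelial UMIs, had 1, 0 and 0 UMIs in Müller glia. The larger Müller cluster (149, 183 and 158 cells) had 582, 602 and 699 CPM in sum and an old to young ratio of 1.20 (1.09 to 1.32). The smaller (33, 32 and 48 cells) had 895, 873 and 1355 CPM and a ratio of 1.51 (1.23 to 1.87).

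**Figure D5:**
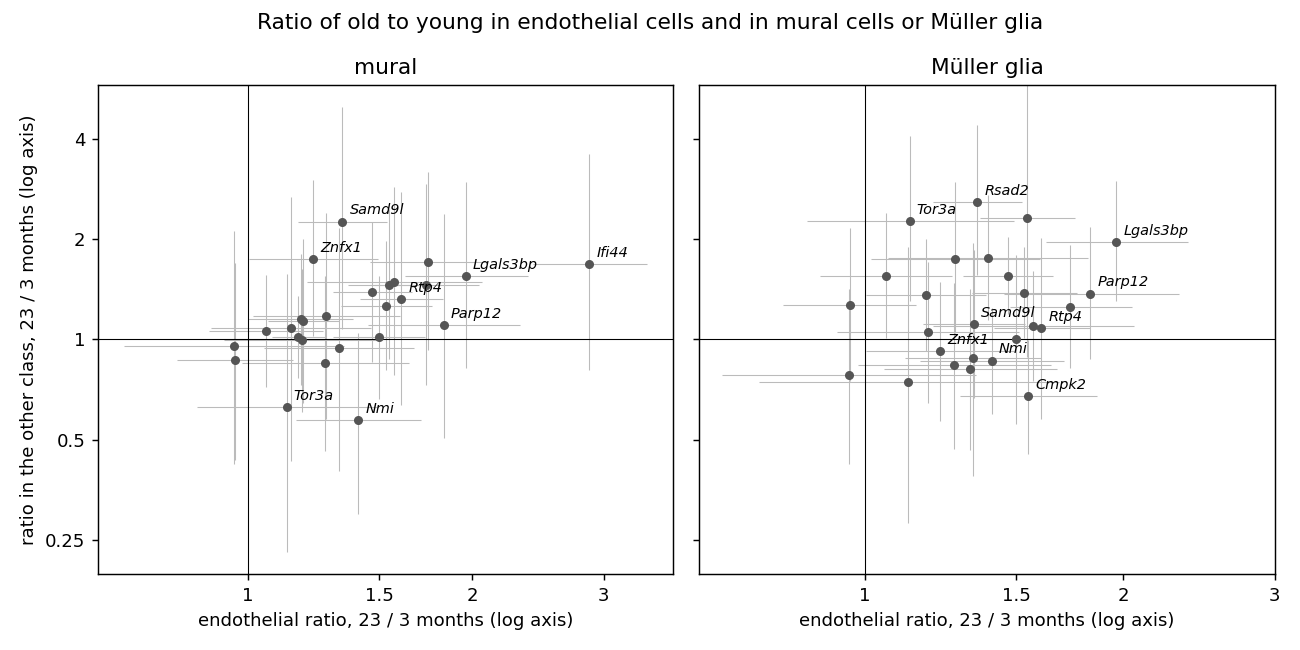
Ratio of old to young (23 over 3 months, log axes) of the genes compared in both classes, endothelial cells on the x axis and mural cells (left) or Müller glia (right) on the y axis, with 95% counting intervals as grey lines. Ifi44 and Lgals3bp lie up and to the right for mural cells, and Cmpk2 lies below 1 for Müller glia at 0.675 while it is 1.55 in endothelial cells.

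Neurons gave little to compare. In rods only Ogfr, Daxx and Tdrd7 reached 30 UMIs. Tdrd7 was counted 136, 261 and 155 times, and its old to young ratio was 0.889 (0.702 to 1.13). Daxx had 27.1, 16.1 and 34.1 CPM, a ratio of 1.26 (0.602 to 2.74). Ogfr, at 10.4, 10.0 and 26.0 CPM on 5, 10 and 16 UMIs, was 1 gene of the 3 past the limit only at 23 months (6.99% of 6456 genes), with a ratio of 2.50 (0.874 to 8.71). Rods also carried markers of Müller glia at 948, 855 and 1509 CPM and of endothelial cells at 56.3, 53.2 and 159 CPM. Their part in the rod values was not tested. In cones Daxx (24.4, 25.4 and 22.5 CPM, 0.923, 0.369 to 2.28) and Tdrd7 (77.3, 107.4 and 61.4 CPM, 0.795, 0.476 to 1.32) passed at neither age, as did 82.4% of 6410 genes. Of 7 genes compared in bipolar cells, 2 passed only at 23 months (28.6% against 4.34% of 9327 genes). Lgals3bp had 12.2 (6.97 to 19.8), 7.76 (3.88 to 13.9) and 25.4 (16.9 to 36.8) CPM there, a ratio of 2.09 (1.09 to 4.13). It was the gene past the limit late in each vascular class and in Müller glia, though its mural interval included 1. Trim25 followed with 9, 12 and 13 UMIs at 1.72 (0.681 to 4.57), and Ogfr and Daxx stood at 1.05 (0.575 to 1.92) and 1.01 (0.499 to 2.04). Lowest were Adar, at 41.1, 31.8 and 32.7 CPM (0.795, 0.507 to 1.23), and Tdrd7, at 16.8, 15.5 and 14.5 CPM (0.867, 0.426 to 1.73).

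Summed over the 37 genes, B cells stood at 2892 (2416 to 3434), 2717 (2535 to 2908) and 3813 (3573 to 4065) CPM, from 10, 76 and 57 cells, beside 2480, 2771 and 3526 CPM in endothelial cells. Shisa5 (467, 550.5 and 743 CPM), Sp100 (645, 397 and 467 CPM) and Slfn2 (578, 336 and 491 CPM) gave the most UMIs there. In the cluster of T cells and macrophages, with 9, 30 and 14 cells, the sum was 1676, 2837 and 3507 CPM. Its neutrophil markers stood at 0, 579 and 16263 CPM, so its makeup differed between libraries. The cluster also carried endothelial markers at 256, 2478 and 447 CPM and pericyte markers at 0, 2293 and 2004 CPM. Their part in the sum was not tested. Epsti1, a gene of macrophage activation with 6 endothelial UMIs in all, reached 88.98, 78.2 and 114 CPM in B cells and 256, 131 and 152 CPM in that cluster. With so few young cells no ratio was taken.

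The pathway above these genes was counted in endothelial cells from a list of 30 genes, of which 19 had at least 30 UMIs. Old stood at least 1.5-fold above young for 4 of the 19 (7.13% of all genes), and 0 were lower by that limit (5.78%) or higher in adult cells (5.34%). Of the transcription factors, 2 of 6 passed. Irf7, the factor that amplifies type I interferon, had 118, 130.1 and 350 CPM and a ratio of 2.96 (2.64 to 3.32). Stat2 had 45.0, 52.2 and 68.4 CPM (1.52, 1.23 to 1.88). Irf9 was below the limit at 1.31 (1.11 to 1.55). Among negative regulators, 2 of 5 passed, Usp18, which removes Isg15 and blocks the receptor, at 43.1, 45.6 and 70.6 CPM (1.64, 1.33 to 2.02) and Socs3, an inhibitor of Janus kinases, at 95.5, 128 and 147 CPM (1.54, 1.33 to 1.77). None of the 5 receptor chains or 3 kinases compared passed. The receptor chains ranged from 0.832 to 1.17 and the kinases from 0.940 to 1.01. All 8 interferon genes on the list had 0 UMIs in the endothelial cells of each library, which by the same floor allows up to 3 UMIs per gene and library.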

How the data were processed

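The authors deposited raw UMI counts per gene and barcode for 3 libraries, per the labels made with Cell Ranger 6.1.2 on mm10; the cell-calling settings are not given in the sources used here. Cells with 500 to 6000 genes and 1 to 20% mitochondrial UMIs, the study's limits, were kept, and Scrublet (scanpy 1.11.5) doublets, 7, 17 and 16 per library, were removed. Cells were integrated and clustered in R 4.3.3 with Seurat 5.3.0 (2000 features, 30 components, resolution 0.5), and clusters were named from at least 3 markers, detected in at least 20% of cells at 25% or more of the highest cluster level. Those limits were set after the clusters were seen. Counts were summed per class and library and scaled to CPM. Genes under 30 UMIs over the libraries of a class were not compared. Intervals were exact Poisson, conditional binomial (ratios) and Clopper-Pearson (shares). Scripts were tested on simulated data. The genes and lists were chosen with earlier results of these data known.

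Full values are given in endothelial cells for the 12 highest and 5 lowest old to young ratios and for genes past the limit at 12 months, and elsewhere for the 4 highest and 2 lowest. Other genes were named to account for every member, and Rsad2, Slfn5 and the single rich cells after their values were seen. Coordinates are from GENCODE M21 (GRCm38). Alternatives changed the scaling, depth, cell choice, doublets, free RNA, fold and UMI minimum. A gene of the pathway list is not reported here and was left out of its counts.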

Additional observations from a re-analysis of the deposited data

Results flagged for a closer look

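Cmpk2 went in opposite directions in endothelial cells and Müller glia. Its old to young ratio was 1.55 (1.29 to 1.86) in endothelial cells, and 1.33 (1.10 to 1.61) without the richest cell of each library, but 0.675 (0.455 to 0.993) in Müller glia and 0.673 (0.451 to 0.994) without the richest cell. Each of these 4 intervals excluded 1. Across the other ways of choosing cells or scaling counts, the endothelial ratio of Cmpk2 ranged from 1.13 to 1.80. The lower end lies below the interval of 1.29 to 1.86, so the size of the endothelial difference depended on the processing. The difference between the classes was not tested, since there was 1 library per age.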

How the results depend on the processing

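No paired analysis was possible because each age had 1 library. The 3 settings on cell clusters and on the richest cell were chosen after seeing the data. The number of genes past the limit by 12 months, 2, was 5 in cells thinned to 2000 UMIs, 6 at the lowest fold limit tried, 1 with the mixed endothelial-pericyte droplets, with free RNA subtracted, with the mean over cells and with at least 100 UMIs, and 0 with an interval above 1, without cells that carry markers of another class, in the larger endothelial cluster and at a fold of 2. Only at 23 months, 13 genes became 8 without cells that carry other markers and 3 at a fold of 2. Only at 12 months, 0 became 2 in thinned cells and 1 with free RNA subtracted, at a fold of 2 and with an interval above 1. Below the limit at both ages, 21 became 11 at the lowest fold limit and 32 at a fold of 2. Median log2 ratios moved to 0.077 (endothelial, adult to young, without cells with other markers), to -0.17 with the sign turned (mural, old to young, thinned, 9 genes left), and to -0.50 and -0.90 (bipolar, old and adult to young, 1000 to 6000 genes and 1 to 10% mitochondrial UMIs, 1 gene left). The summed endothelial ratio of old to young was 1.29 without cells with other markers and 1.46 in the larger cluster, and of adult to young 1.08 scaled by the median of gene ratios and 1.04 without those cells. In Müller glia it was 1.02 (old) and 0.840 (adult) with free RNA subtracted and 0.923 (adult) as the mean over cells. In cones it was 0.721 (thinned) and 0.607 (stricter cell limits) for old and 0.949 (stricter limits) for adult, and in bipolar cells 1.15 for adult in thinned cells. Among single genes in endothelial cells, old to young ratios crossed 1 for 6 genes, downward for Znfx1 (0.969) and Trim56 (0.747) without cells with other markers and for Adar (0.994) and Tor3a (0.985) in thinned cells, and upward for Daxx (1.95 thinned, 1.06 with the mixed droplets) and Trim25 (1.04 with the mixed droplets, 1.02 with the cluster of low UMI number). Where cells were left out, fewer cells and UMIs entered. With the mixed droplets or the cluster of low UMI number, more entered. Other causes of the moved values were not tested. With 1 library per age, counting error alone was measured, and genes under about 30 UMIs could not be ordered by age.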
